A study of Mus musculus with 15 samples.

Results

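Endothelial and angiogenic genes were followed in a fast hindlimb muscle, the tibialis anterior, of 129Pas males at 7 weeks of age. The genes were 10 of the 30672 genes in the count table, named by symbol: the capillary surface markers Pecam1, Cdh5 and Emcn, the receptors Kdr, Flt1, Tek and Tie1, and the secreted factors Vegfa, Vegfb and Angpt1. All 10 symbols were found, and all 10 passed the filter on low counts that left 15533 genes for testing. There were 4 groups of mice. The untreated ones were 4 WT and 4 Mtm1-/y mice, and those given tamoxifen were 4 WT mice (WT + TAM) and 3 mutants (Mtm1-/y + TAM). Mtm1-/y males carry a disrupted X-linked gene for the lipid phosphatase myotubularin and are a model of X-linked myotubular myopathy. Tamoxifen, a modulator of oestrogen receptors, was the agent that set the treated groups apart; its regimen was not stated in any source read. The groups share strain, sex, age and muscle. The libraries were made from RNA of the whole muscle, so a lower level of an endothelial gene can come from fewer endothelial cells or from less of its RNA in each cell, and these cannot be told apart.

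Capillaries of skeletal muscle are tubes of endothelial cells held together by VE-cadherin (Cdh5) and CD31 (Pecam1). Muscle fibres are a main source of VEGF-A (Vegfa), which binds VEGF receptor 2 (Kdr), the receptor that drives endothelial growth. VEGF-A also binds VEGF receptor 1 (Flt1), which holds it tightly and can act as a decoy. Of these 2 receptors, VEGF-B (Vegfb) binds VEGF receptor 1 only. Angiopoietin-1 (Angpt1), made by cells around the vessel, binds the receptor Tie2 (Tek), whose partner Tie1 modulates its signal, and this pathway keeps mature vessels stable. Endomucin (Emcn) is a mucin-like protein on capillary and venous endothelium.

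In GRCm38 all 10 are protein-coding genes. The endothelial surface genes are Pecam1 (ENSMUSG00000020717, chr11:106654217-106750628), Cdh5 (ENSMUSG00000031871, chr8:104101625-104144511) and Emcn (ENSMUSG00000054690, chr3:137341067-137432185). The VEGF receptor genes Kdr (ENSMUSG00000062960, chr5:75932827-75978458) and Flt1 (ENSMUSG00000029648, chr5:147561604-147726011) share a chromosome, as do Tek (ENSMUSG00000006386, chr4:94739289-94874976) and Tie1 (ENSMUSG00000033191, chr4:118471191-118490061). The factors are Vegfa (ENSMUSG00000023951, chr17:46016993-46032369), Vegfb (ENSMUSG00000024962, chr19:6982473-6987651) and Angpt1 (ENSMUSG00000022309, chr15:42424723-42676977). An antisense gene, Gm17473, overlaps 737 bases of Angpt1 exons, and another, Gm29682, lies across 4249 bases of Cdh5 without touching its exons. Whether counting used the strand was not stated in any source read, so reads of Angpt1 and Gm17473 may not have been told apart.

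The sequence just before the start of transcription is shown for the VEGF receptor genes Kdr, which was called lower in Mtm1-/y muscle, and Flt1, which was not, for the capillary marker Emcn and for Vegfa. Each is the stretch of 250 bases upstream of the RefSeq start in GRCm38.p6, 5′ to 3′ on the gene's strand: chr5:75978456-75978705 for Kdr (minus strand), chr5:147726012-147726261 for Flt1 (minus), chr3:137340828-137341077 for Emcn (plus) and chr17:46032378-46032627 for Vegfa (minus). Capitals mark matches, on either strand, to the ETS motif AGGAAG, the hypoxia response core ACGTG or GCGTG, and the GATA motif AGATAA.
Kdr: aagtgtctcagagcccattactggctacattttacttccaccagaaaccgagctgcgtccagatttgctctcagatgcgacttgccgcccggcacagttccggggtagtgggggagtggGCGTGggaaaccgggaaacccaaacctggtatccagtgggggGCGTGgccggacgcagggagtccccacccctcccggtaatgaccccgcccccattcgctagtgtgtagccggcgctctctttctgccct
Flt1: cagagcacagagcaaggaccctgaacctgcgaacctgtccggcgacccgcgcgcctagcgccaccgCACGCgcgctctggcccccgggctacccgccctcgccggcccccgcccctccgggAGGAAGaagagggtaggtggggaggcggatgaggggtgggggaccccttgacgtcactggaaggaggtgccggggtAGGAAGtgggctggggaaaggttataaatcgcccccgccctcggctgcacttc
Emcn: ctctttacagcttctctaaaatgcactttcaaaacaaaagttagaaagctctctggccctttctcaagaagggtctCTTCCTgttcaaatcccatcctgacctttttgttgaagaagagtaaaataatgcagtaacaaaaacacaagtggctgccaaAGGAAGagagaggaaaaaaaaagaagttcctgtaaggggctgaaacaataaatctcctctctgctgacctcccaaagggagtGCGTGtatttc
Vegfa: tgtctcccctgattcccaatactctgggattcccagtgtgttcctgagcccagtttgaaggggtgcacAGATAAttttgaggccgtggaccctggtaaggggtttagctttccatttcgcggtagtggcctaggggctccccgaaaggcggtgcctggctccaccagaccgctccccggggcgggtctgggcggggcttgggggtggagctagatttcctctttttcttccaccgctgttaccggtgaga

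Of the 10 genes, 7 had such a window in the RefSeq table, Vegfa with 2 starts; Pecam1, Cdh5 and Angpt1 had none. The ETS motif, bound by a family of factors that includes the endothelial regulators ERG and FLI1, was present 2 times before Flt1, 2 times before Emcn and 1 time before Tie1, and was absent from the windows of Kdr, Tek, Vegfa and Vegfb. It was found in 29.5% of all 32851 windows of this length. The hypoxia response core was present before Kdr (2 matches), Flt1 (1), Emcn (1) and Vegfb (2), against 38.6% of all windows. The window of the outer start of Vegfa held 0 matches. That of the inner start held 2, but this window (chr17:46025164-46025413) lies inside the Vegfa gene. The GATA motif was seen only at the outer start of Vegfa (9.99% of all windows), and the E-box CANNTG before Kdr, Tek, Tie1, Emcn, Vegfb and the inner start of Vegfa (66.2% of all windows). These matches describe letters in a window and not sites of binding.

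Libraries held 18042558 to 45823277 counts, and values are given as CPM (counts scaled to a common library size) after TMM, a correction for library composition. Mtm1 itself lay between 13.5 and 17.7 CPM in the 8 libraries labelled WT, and between 2.91 and 3.71 CPM in the 7 labelled as mutant. The tissue label was checked on muscle genes: markers of fast fibres, which fill this muscle, summed to between 137695 and 242069 CPM in every library. A pair of libraries stood apart. Mtm1-/y replicate 1 lay at -69.1 on the second principal component (13.5% of variance), where the other 14 lay between -21.1 and 33.5, and WT + TAM replicate 1 lay at -73.1 on the third (10.3% of variance), where the others lay between -3.93 and 11.6. WT + TAM replicate 1 also held 1058 CPM of slow fibre markers, 71.8 CPM of adipocyte markers and 3091 CPM of fibroblast markers. The other libraries held 23.8 to 152, 0.610 to 17.95 and 347 to 1646 CPM; the part of these markers in the results was not tested. Calls of the 10 genes that rest on either library, in comparisons of its group, are given with and without it. For the other lists this was done for some counts of called genes, and not for the values of single genes.

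Per kilobase of exon, Vegfa was the most abundant of the 10 in WT muscle, at 64.0 ± 6.70 CPM per kb (SD, n = 4), followed by Vegfb at 43.0 ± 4.67 and Cdh5 at 38.6 ± 5.34. Pecam1 (19.3 ± 3.23), Tie1 (17.4 ± 2.18) and Kdr (12.05 ± 1.27) came next. Tek stood at 7.37 ± 0.47, Flt1 at 6.44 ± 1.05, and Angpt1 (4.13 ± 0.46) and Emcn (4.12 ± 0.59) were lowest, with SDs that overlap. In Mtm1-/y muscle Vegfb (36.2 ± 3.40) and Vegfa (36.0 ± 13.7) differed by less than their SDs, while Kdr, at 3.50 ± 1.58 CPM per kb, lay below Flt1, at 5.02 ± 1.88, the reverse of their order in WT, though with SDs that overlap. Exon length here joins all annotated exons of a gene, 9030 bases for Kdr and 13504 for Flt1. The order between genes depends on these lengths. The smallest count behind any of the WT and Mtm1-/y values was 239, for Angpt1, so counting error was small beside the spread between mice.

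**Figure D1:**
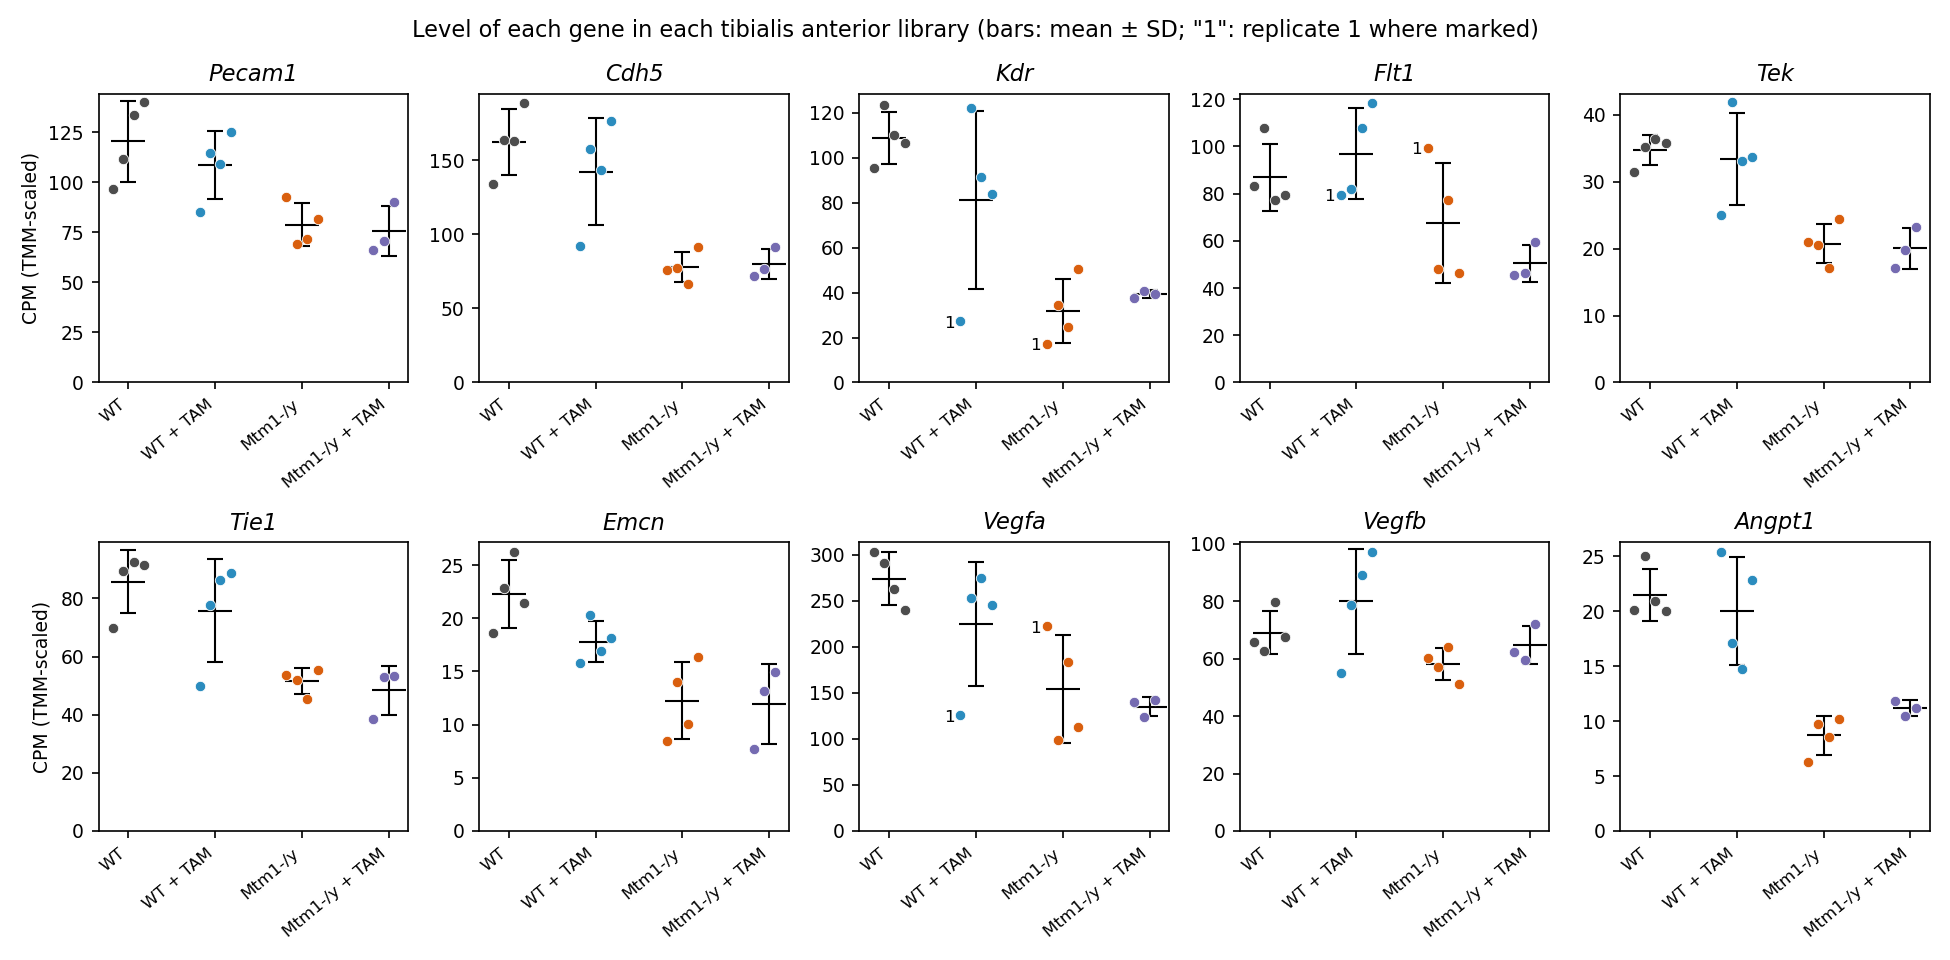
Each point is 1 library and the y axis is its TMM-scaled CPM, in a panel for each gene; black bars are the group mean and SD (n = 4, 4, 4 and 3), and replicate 1 of WT + TAM and of Mtm1-/y is marked in the panels of Kdr, Flt1 and Vegfa. Both Mtm1-/y groups lie low for most genes, the marked Mtm1-/y library is the highest of its group for Flt1 (99.4 CPM) and Vegfa (222 CPM) and the lowest for Kdr (17.2 CPM), and the marked WT + TAM library is the lowest of its group for all 3.

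The first comparison asked how the genes differed between Mtm1-/y and WT muscle without tamoxifen. Of the 10, 8 were lower in Mtm1-/y and 0 higher at an adjusted p under 0.05 (edgeR quasi-likelihood test, Benjamini-Hochberg over all tested genes). In this comparison 30.4% of all tested genes were called, 14.9% as lower and 15.5% as higher. For these same 8 genes every Mtm1-/y library lay below every WT library, which held for 15.7% of tested genes. The log2FC of all 10 were negative, with a median of -0.78, where the median of all tested genes was 0.00. The largest decreases were those of Kdr, Angpt1 and Cdh5, at 0.291, 0.405 and 0.480 of WT, and the genes that did not pass the test were Flt1 and Vegfb.

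Cdh5, the adhesion molecule of endothelial junctions, was at 134, 164, 163 and 189 CPM in WT and at 76.0, 77.5, 66.8 and 91.2 CPM in Mtm1-/y. The groups were well apart, and Cdh5 fell with a log2FC of -1.06 (SE 0.17, adjusted p = 0.000400), or to 0.480 of WT. Pecam1, an adhesion molecule that endothelium shares with platelets and some leukocytes, was at 96.6, 112, 134 and 140.3 CPM in WT and at 92.7, 69.2, 71.8 and 81.7 CPM in Mtm1-/y. The gap between the groups was narrow, between WT replicate 1 and Mtm1-/y replicate 1, and the log2FC was -0.61 (SE 0.15, adjusted p = 0.00627). Emcn was at 18.6, 22.8, 26.2 and 21.5 CPM in WT and at 8.47, 14.0, 10.1 and 16.4 CPM in Mtm1-/y, a log2FC of -0.86 (SE 0.21, adjusted p = 0.00680). The 3 surface markers thus lay below WT in each of the 4 Mtm1-/y libraries.

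Kdr, the main signalling receptor for VEGF-A, showed the largest decrease of the 10. It was at 95.4, 123, 110.1 and 106 CPM in WT and at 17.2, 34.3, 24.8 and 50.3 CPM in Mtm1-/y. The highest Mtm1-/y library was still far below the lowest WT library, and the log2FC was -1.78 (SE 0.38, adjusted p = 0.00401), or 0.291 of WT. Among Mtm1-/y libraries Kdr also varied most of the 10, with a coefficient of variation of 45.2% against 10.5% in WT. Flt1, the other VEGF receptor, was at 83.1, 108, 77.3 and 79.5 CPM in WT and at 99.4, 48.1, 77.2 and 46.2 CPM in Mtm1-/y. Its groups overlapped, since Mtm1-/y replicates 2 and 4 were low, replicate 3 lay just under the lowest WT library and replicate 1 was inside the WT range, and its log2FC of -0.36 (SE 0.22, 95% interval -0.84 to 0.12, adjusted p = 0.242) did not pass the test. Without Mtm1-/y replicate 1, Flt1 was called lower at -0.60 (adjusted p = 0.0360).

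The angiopoietin receptors differed less than Kdr and were more even between mice. Tek was at 31.5, 35.2, 36.4 and 35.8 CPM in WT and at 20.95, 20.6, 17.1 and 24.4 CPM in Mtm1-/y. All Mtm1-/y values were below all WT values, with a log2FC of -0.74 (SE 0.14, adjusted p = 0.00143). Tie1 was at 69.8, 89.4, 92.5 and 91.3 CPM in WT, where replicate 1 was low, and at 53.8, 52.0, 45.3 and 55.5 CPM in Mtm1-/y. Its log2FC was -0.73 (SE 0.16, adjusted p = 0.00366). Tek thus stood at 0.599 and Tie1 at 0.602 of WT.

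Of the secreted factors, Angpt1 was at 20.1, 25.0, 20.9 and 20.0 CPM in WT and at 6.25, 9.76, 8.58 and 10.2 CPM in Mtm1-/y. The groups were far apart relative to their spread, the log2FC was -1.30 (SE 0.17) and the adjusted p, 9.07e-05, was the smallest of the 10 genes. Vegfa was at 304, 291, 263 and 239.6 CPM in WT and at 222, 98.9, 184 and 113 CPM in Mtm1-/y. The Mtm1-/y libraries ranged widely but all lay below WT, with a log2FC of -0.83 (SE 0.25, adjusted p = 0.0238). This call was the least secure: the adjusted p was 0.0583 without WT replicate 1, 0.0542 without WT replicate 2, 0.0632 without Mtm1-/y replicate 2, 0.0638 without Mtm1-/y replicate 4 and 0.0796 with no filter on low counts. Vegfb, which signals through VEGF receptor 1, was at 65.9, 62.6, 79.7 and 67.6 CPM in WT and at 60.1, 57.0, 64.2 and 51.2 CPM in Mtm1-/y; the groups overlapped and the log2FC of -0.25 (SE 0.14, 95% interval -0.55 to 0.06, adjusted p = 0.212) did not pass the test.

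**Figure D2:**
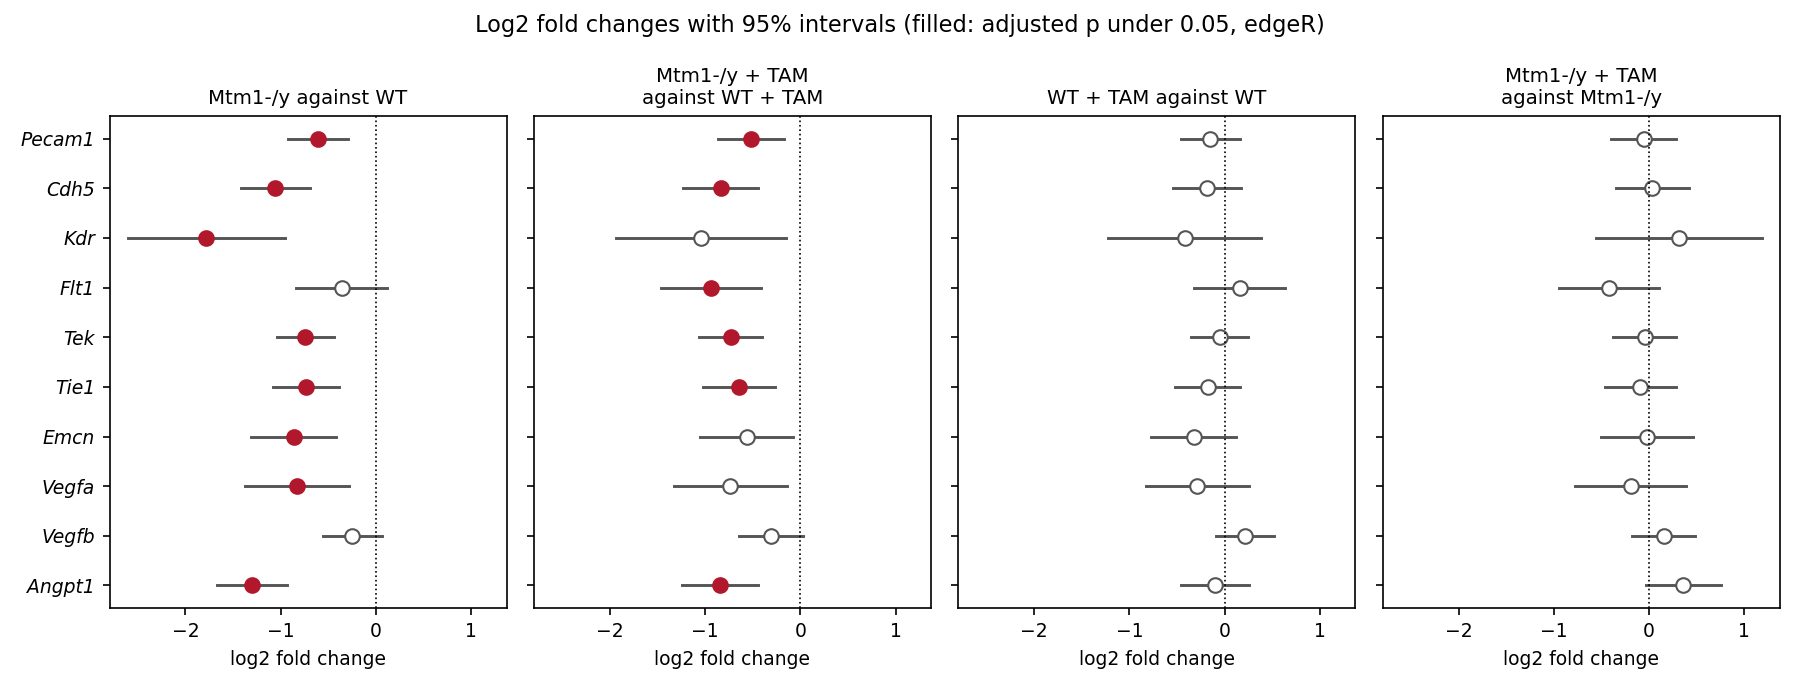
Points are log2 fold changes (x axis) of the 10 genes (y axis) in 4 comparisons, lines are 95% intervals, and filled points passed an adjusted p under 0.05 (edgeR). In Mtm1-/y against WT 8 points are filled, from -1.78 (Kdr) to -0.61 (Pecam1); in the tamoxifen-treated groups 6 are filled; in both comparisons of tamoxifen within a genotype none is filled.

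Because Kdr fell and Flt1 was not called, their ratio was taken within each library, where it does not depend on scaling. This test was chosen after the values were seen. The log2 ratio of Flt1 to Kdr counts was -0.20, -0.19, -0.51 and -0.42 in WT, and 2.53, 0.49, 1.64 and -0.12 in Mtm1-/y. Every Mtm1-/y library lay above every WT library, replicate 1 most of all and replicate 4 barely. The means differed by 1.47 (exact two-sided permutation test, p = 0.0286, the smallest that 70 arrangements allow, and 0.0571 after adjustment over the 4 ratio tests). In the treated groups the ratio was 1.54, -0.58, 0.24 and 0.50 in WT + TAM and 0.27, 0.19 and 0.59 in Mtm1-/y + TAM. These overlapped and their means differed by -0.07 (exact permutation p = 0.857), and by 0.30 in the other direction without WT + TAM replicate 1 (exact permutation p = 0.500, where 20 arrangements allow no less than 0.10). Between the untreated groups the difference was 1.00 without Mtm1-/y replicate 1 (exact permutation p = 0.0286, unadjusted). The log2 ratio of Kdr to Cdh5, which sets the receptor against a general endothelial gene, was -1.40 on average in Mtm1-/y and -0.57 in WT. That difference of -0.83 had the same exact permutation p of 0.0286 and adjusted p of 0.0571, and without overlap, the nearest libraries being WT replicate 4 at -0.83 and Mtm1-/y replicate 4 at -0.86. Between Mtm1-/y + TAM and WT + TAM that ratio differed by -0.05 (exact permutation p = 0.914), and by -0.32 without WT + TAM replicate 1 (exact permutation p = 0.300). Between the untreated groups it differed by -0.58 without Mtm1-/y replicate 1 (exact permutation p = 0.0571, unadjusted).

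Other endothelial markers were counted to see how widely the decrease was shared. Beside the counts of this list and those that follow, 14.9% of all tested genes were called lower in Mtm1-/y and 15.5% higher. Of 22 further endothelial markers, 14 were lower in Mtm1-/y and 0 higher, with a median log2FC of -0.65. The largest decreases were those of Cd93, a surface receptor of endothelium (-1.43, adjusted p = 0.000231), and Sox7, an endothelial transcription factor (-1.11, adjusted p = 0.0144). The smallest called were Robo4 (-0.46, adjusted p = 0.0298) and the junction protein gene Esam (-0.61, adjusted p = 0.00957). Some endothelial genes, picked after their values were seen, were close to WT: Cldn5, a tight junction gene, at -0.03 (SE 0.43), the transcription factor gene Sox18 at 0.00 (SE 0.27) and Plvap, of the fenestral diaphragm, at 0.15 (SE 0.14). Without Mtm1-/y replicate 1 and WT + TAM replicate 1, 17 of the 22 were lower. Of 6 arterial markers 2 were lower (Gja5, a connexin, -1.63, and Efnb2, -0.83), of 5 tested venous markers 2 were lower (Vcam1, -1.52, and Ephb4, -0.48; 1 without WT replicate 2 or 4 or Mtm1-/y replicate 2 or 3), and of 5 lymphatic markers 0 were called, at a median of -1.18 with wide errors. That last count was 1 without Mtm1-/y replicate 1.

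The partners of the 2 ligand systems moved with their receptors in part. Of 6 other genes for VEGF ligands, receptors and co-receptors, 4 were lower and 1 higher. The neuropilins, co-receptors of Kdr, fell most: Nrp2 from 32.3 ± 5.60 to 10.1 ± 1.77 CPM (SD, n = 4; log2FC -1.68, adjusted p = 4.62e-06) and Nrp1 from 55.2 ± 4.52 to 19.1 ± 2.15 CPM (log2FC -1.53, adjusted p = 3.13e-06). Vegfc, a lymphatic ligand, was lower at -0.84 (adjusted p = 0.0477) and Vegfd higher at 0.96 (adjusted p = 0.0214). Vegfd ranged from 2.30 to 3.54 CPM in WT and from 3.81 to 10.2 CPM in Mtm1-/y. The count for this list was 3 in place of 5 without WT replicate 3, WT replicate 4 or Mtm1-/y replicate 1. Without both libraries that stood apart it was 3 with 0 higher, so the call of Vegfd was lost. Of 4 genes around the Tie receptors, Angpt2, the antagonist ligand, fell (-0.93, adjusted p = 0.00309), as did Ptprb, the phosphatase that restrains Tie2 (-0.78, adjusted p = 0.000754). Angpt4 was called higher (1.96, adjusted p = 0.0264) but on 1 to 12 counts a library in WT and 7 to 29 in Mtm1-/y.

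Genes of Notch signalling and of tip cells, the endothelial cells that lead a sprout, held the largest decreases near this pathway. Of 13, 7 were lower and 1 higher, with a median of -0.81. Esm1, a product of VEGF-stimulated tip cells, fell from 2.37 ± 0.55 to 0.340 ± 0.189 CPM (SD, n = 4; log2FC -2.75, adjusted p = 0.000210), on 4 to 26 counts a library in Mtm1-/y. Apln, the peptide apelin, fell from 4.97 ± 2.32 to 0.775 ± 0.325 CPM (log2FC -2.69, adjusted p = 0.00316). The Notch ligand Jag1 fell by 0.58 on the log2 scale (adjusted p = 0.0395), and the Notch target Hes1, which many cell types use, rose by 0.57 (adjusted p = 0.0322). The count of 8 called was 5 without WT replicate 2. Of 12 pericyte and vascular smooth muscle markers, 6 were lower and 1 higher: Mcam (-1.01) and the channel gene Kcnj8 (-0.93) fell most, Abcc9 least (-0.38), and the proteoglycan gene Cspg4 rose (0.85, adjusted p = 0.0116). Summed over its 12 genes this list ranged from 999 to 1155 CPM in WT and from 667 to 822 CPM in Mtm1-/y. The part of these mural cells in the level of Angpt1, which they express, was not tested.

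Regulators upstream of Vegfa were mostly not called, as were most tested genes, of which 30.4% were called in this comparison. Of 9 genes known to control its transcription 1 passed the test: Arnt, the partner of the hypoxia-inducible factors, was higher (0.36, adjusted p = 0.0335), a call lost without any 1 of the WT libraries or without Mtm1-/y replicate 4. Hif1a was at 23.8 ± 1.5 CPM in WT and at 24.1 ± 3.18 CPM in Mtm1-/y (log2FC 0.02, SE 0.10, adjusted p = 0.915), and neither Epas1 (-0.34, adjusted p = 0.149) nor Ppargc1a, a coactivator of Vegfa in muscle (0.11, adjusted p = 0.819), was called. Without both libraries that stood apart 2 of the 9 were called, both lower. Of 14 hypoxia targets 3 were higher and 1 lower, with a median of 0.04. Egln3, an oxygen-sensing hydroxylase gene, rose from 25.3 ± 4.13 to 153 ± 73.1 CPM (SD, n = 4; log2FC 2.59, adjusted p = 2.57e-05). Ddit4, a stress-induced inhibitor of mTORC1 that glucocorticoids also induce, rose by 1.59 (adjusted p = 0.0105), and the glucose transporter gene Slc2a1 by 0.78 (adjusted p = 0.0310), while P4ha2, a collagen hydroxylase gene, fell by 0.64 (adjusted p = 0.000586). Of 6 inhibitors of vessel growth, Vash1 alone was called, lower (-0.71, adjusted p = 0.0229), and not without WT replicate 4 or Mtm1-/y replicate 2.

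**Figure D3:**
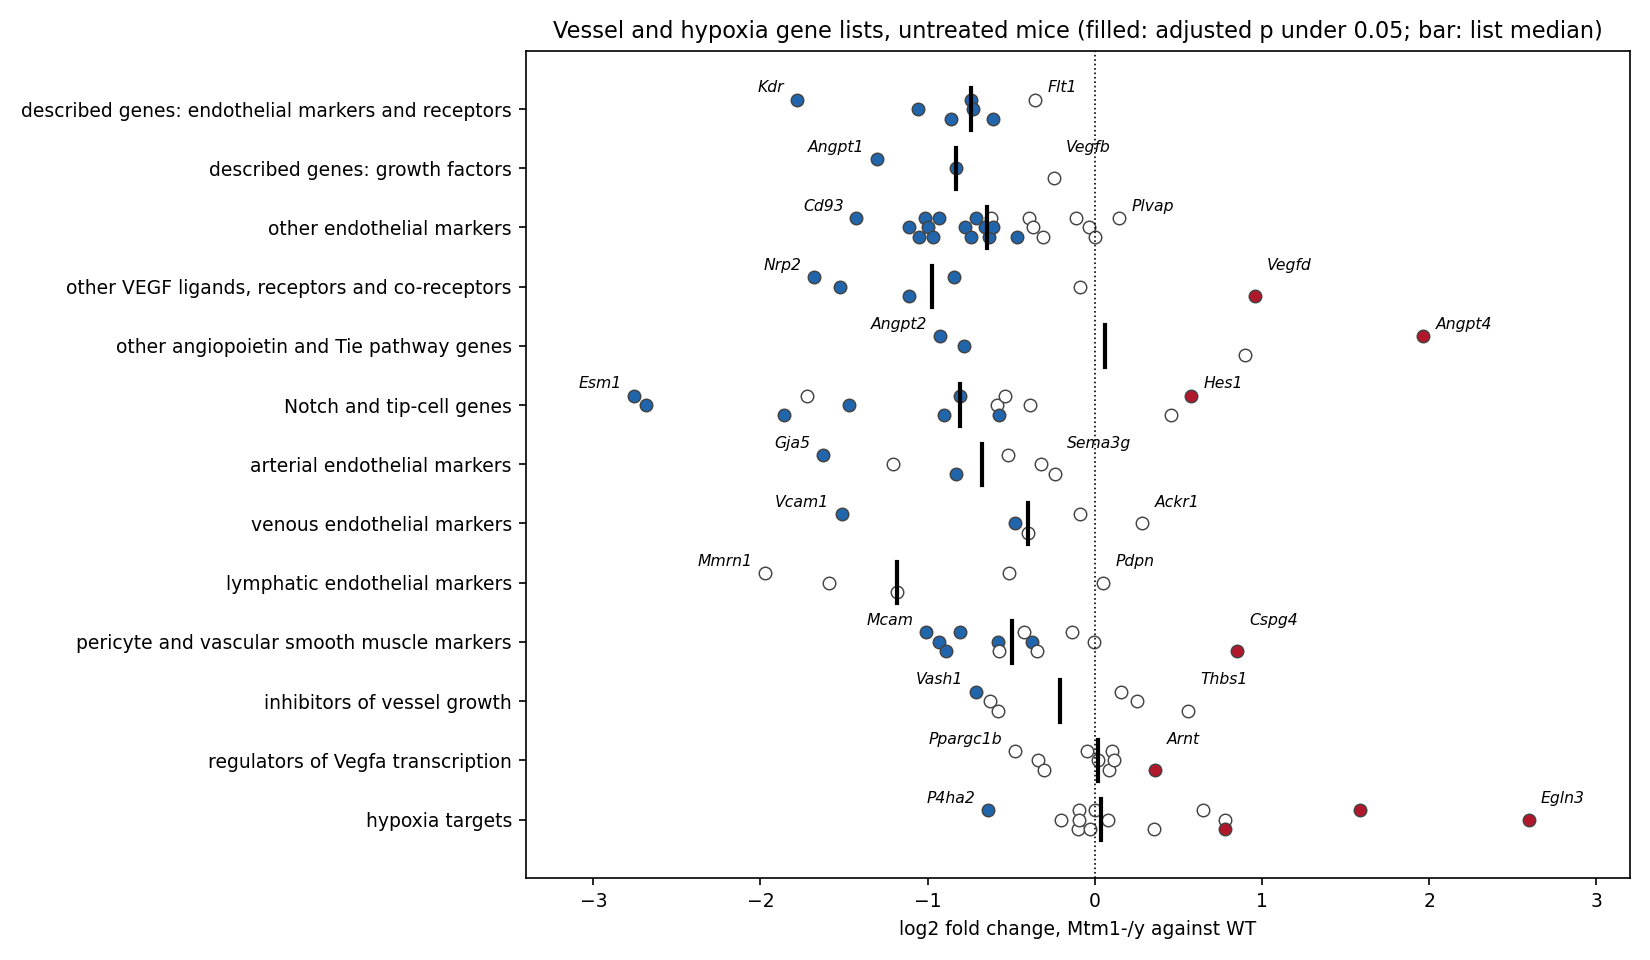
Each point is a tested gene, placed by its log2 fold change in Mtm1-/y against WT (x axis) in the row of its list (y axis); filled points passed an adjusted p under 0.05 (blue lower, red higher), black bars are list medians, and the lowest and highest gene of each list is named. The lists of described genes, other endothelial markers, VEGF partners and tip-cell genes have medians between -0.98 and -0.65, while regulators of Vegfa (0.02) and hypoxia targets (0.04) are centred near 0.

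Markers of other cells in the muscle were set beside these counts, in the same comparison, where 30.4% of all tested genes were called. Of 8 fast fibre markers 2 were lower (Tnnt3, -0.51, and Acta1, -0.43), with a median of -0.29 over the 8, and 1 was called without WT replicate 1 or 2 or Mtm1-/y replicate 1, 2 or 4. Of 6 slow fibre markers Myl3 alone was called, lower (-3.81), while 4 of the 6 had a positive log2FC and the median was 1.20. Without both libraries that stood apart 3 were called higher. Of 6 fibroblast markers Pdgfra alone was called, higher (0.76), but 4 of the 6 had a negative log2FC and the median was -0.16. Of 6 macrophage markers Cd68 alone was called, higher (1.87, not without WT replicate 1, 2 or 3). In that list 5 had a positive log2FC and the median was 0.45. Adipocyte markers (median -1.76), red blood cell markers (median -0.68) and platelet markers (2 of 4 tested, median 0.41) held 0 calls. Without WT + TAM replicate 1 there were 2 adipocyte calls, without both libraries that stood apart 1, and without Mtm1-/y replicate 3 there was 1 platelet call. Red blood cell markers summed to 69.1 to 96.2 CPM in WT and to 14.9 to 66.5 CPM in Mtm1-/y, in which replicate 1 was lowest; 4 of the 5 are globin genes with near-identical copies, so reads may be split among them. The called fibroblast gene thus went against most of its list, and the part of each list in the endothelial values was not tested.

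The second comparison put Mtm1-/y + TAM against WT + TAM. Of the 10 genes 6 were lower and 0 higher, where 20.1% of all tested genes were called and 9.46% as lower. All 10 log2FC were negative, with a median of -0.73 against -0.02 over all tested genes. Cdh5, Flt1, Tek, Angpt1, Pecam1 and Tie1 were called; Kdr, Emcn, Vegfa and Vegfb were not. Cdh5, Flt1, Tek, Emcn and Angpt1 had no overlap between the groups, which held for 14.4% of tested genes as lower. The comparison uses other mice than the untreated one, with 3 in the mutant group.

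Cdh5 was at 91.9, 158, 143 and 177 CPM in WT + TAM and at 71.8, 76.3 and 91.2 CPM in Mtm1-/y + TAM, a log2FC of -0.84 (SE 0.19, adjusted p = 0.00589). WT + TAM replicate 1 was almost as low as the highest mutant library. Pecam1 was at 85.2, 115, 109 and 125 CPM in WT + TAM and at 66.3, 70.9 and 90.1 CPM in Mtm1-/y + TAM (log2FC -0.52, SE 0.16, adjusted p = 0.0337). Tie1 was at 50.0, 77.8, 86.4 and 88.8 CPM in WT + TAM and at 38.5, 53.1 and 53.5 CPM in Mtm1-/y + TAM (log2FC -0.65, SE 0.18, adjusted p = 0.0184). For both, the lowest WT + TAM library lay inside the mutant range. The Pecam1 call was lost without WT + TAM replicate 2, 3 or 4 or Mtm1-/y + TAM replicate 1 or 2, and the Tie1 call without WT + TAM replicate 3 or 4 or Mtm1-/y + TAM replicate 1. Tek was at 25.1, 42.0, 33.1 and 33.7 CPM in WT + TAM and at 17.1, 19.9 and 23.3 CPM in Mtm1-/y + TAM, with a log2FC of -0.73 (SE 0.16, adjusted p = 0.00465).

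Flt1 passed the test here: it was at 79.4, 81.8, 108 and 119 CPM in WT + TAM and at 45.5, 46.6 and 59.6 CPM in Mtm1-/y + TAM. The groups were apart, with a log2FC of -0.94 (SE 0.25, adjusted p = 0.0166), but the adjusted p was 0.0663 without Mtm1-/y + TAM replicate 1 and 0.0724 without replicate 2. Kdr was at 27.2, 122, 91.5 and 84.0 CPM in WT + TAM and at 37.7, 40.8 and 39.6 CPM in Mtm1-/y + TAM. The 3 mutant libraries were nearly equal, WT + TAM replicate 1 was below all of them, and the log2FC of -1.04 (SE 0.41, adjusted p = 0.0922) missed the threshold. Without that library Kdr was called lower at -1.33 (adjusted p = 0.00619). For Vegfa, WT + TAM replicate 1 lay inside the mutant range: it was at 126, 254, 275 and 246 CPM in WT + TAM and at 139.6, 123 and 142 CPM in Mtm1-/y + TAM. Its log2FC was -0.74 (SE 0.28, adjusted p = 0.0754), and -0.94 (adjusted p = 0.0115) without WT + TAM replicate 1.

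Emcn was at 15.8, 20.3, 16.9 and 18.1 CPM in WT + TAM and at 7.74, 13.1 and 14.98 CPM in Mtm1-/y + TAM, apart but close, with a log2FC of -0.56 (SE 0.23, adjusted p = 0.0987). Vegfb was at 54.9, 78.7, 89.2 and 97.0 CPM in WT + TAM and at 62.2, 59.6 and 72.1 CPM in Mtm1-/y + TAM, a log2FC of -0.31 (SE 0.16, adjusted p = 0.184), called at -0.45 (adjusted p = 0.0151) without WT + TAM replicate 1. Angpt1 was at 25.3, 17.1, 14.8 and 22.8 CPM in WT + TAM and at 11.9, 10.5 and 11.2 CPM in Mtm1-/y + TAM. Its groups were apart, with a log2FC of -0.84 (SE 0.19, adjusted p = 0.00603). Leaving out WT + TAM replicate 1 raised the number of genes called from 6 to 9, all lower, and leaving out Mtm1-/y + TAM replicate 1 lowered it to 3.

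In the treated mice 9.46% of all tested genes were called lower and 10.6% higher. Of the 22 further endothelial markers 11 were lower and 0 higher (median -0.57). That count was 6 without WT + TAM replicate 3, 7 without WT + TAM replicate 4, 3 without Mtm1-/y + TAM replicate 1 and 3 without Mtm1-/y + TAM replicate 2. Flt4 (-1.30), Nrp2 (-1.29) and Nrp1 (-1.18) were the called genes among 6 VEGF partners, and Angpt2 (-1.21) and Ptprb (-1.15) among 4 Tie partners. Flt4 also ranged lower in untreated mutants, from 4.44 to 6.55 CPM in Mtm1-/y and from 9.91 to 13.1 CPM in WT. Of 13 Notch and tip-cell genes 6 were lower, a count of 1 without Mtm1-/y + TAM replicate 1 or 2 and of 3 without Mtm1-/y + TAM replicate 3 or WT + TAM replicate 3. Of 12 pericyte and smooth muscle markers 6 were lower and 1, Cspg4 (0.92), higher, which came to 3 calls without Mtm1-/y + TAM replicate 2. Among the regulators of Vegfa, Epas1, the hypoxia-inducible factor of endothelium, was lower (-0.78, adjusted p = 0.00946), but not without Mtm1-/y + TAM replicate 2. That count of 1 was 3 without WT + TAM replicate 1, 2 without Mtm1-/y replicate 1 or 4, and 4, all lower, without both libraries that stood apart. Of the hypoxia targets Egln3 was higher (0.90, adjusted p = 0.0345) and P4ha2 lower (-0.64, adjusted p = 0.00210), with 1 of them called without WT + TAM replicate 2 or 3 or Mtm1-/y + TAM replicate 1 or 2.

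Tamoxifen within a genotype gave 0 calls among the 10 genes in either comparison by edgeR, and 0 by DESeq2 and by limma-voom. Over all tested genes 0.309% were called for WT + TAM against WT and 0.0129% for Mtm1-/y + TAM against Mtm1-/y. The further endothelial markers, VEGF and Tie partners, Notch and tip-cell genes and hypoxia targets also held 0 calls in both. Without Mtm1-/y replicate 1, 1 hypoxia target was called in WT + TAM against WT. At an unadjusted p under 0.05, 0 of the 10 passed in either comparison, where 11.3% and 5.54% of all tested genes did. In WT the log2FC ranged from -0.42 for Kdr (95% interval -1.22 to 0.38) to 0.21 for Vegfb (-0.09 to 0.52). All 10 genes overlapped between treated and untreated WT, as did most tested genes, of which 8.08% did not overlap. In Mtm1-/y they ranged from -0.42 for Flt1 (-0.94 to 0.10) to 0.36 for Angpt1 (-0.03 to 0.75). Intervals for Pecam1, Cdh5, Tek and Tie1 in Mtm1-/y lay between -0.47 and 0.42, while those of Kdr (-0.55 to 1.18) and Vegfa (-0.78 to 0.39) were wider.

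Angpt1 was the gene whose treated and untreated Mtm1-/y libraries did not overlap: 6.25, 9.76, 8.58 and 10.2 CPM without and 11.9, 10.5 and 11.2 CPM with tamoxifen. The separation was narrow, 3.33% of tested genes showed it in this direction, and the adjusted p was 0.855. For Kdr the spread differed between these groups, with 3.99% as its coefficient of variation in the 3 treated Mtm1-/y libraries and 45.2% in the 4 untreated ones, and the treated values lay inside the untreated range. The test of whether the genotype difference changed with tamoxifen called 0 of the 10 genes, and 0% of all genes, by edgeR (10.6% of all tested genes had an unadjusted p under 0.05, and 0 of the 10). By DESeq2 and limma-voom the count of the 10 was also 0. The interaction was 0.74 for Kdr (95% interval -0.44 to 1.92, adjusted p = 0.644), -0.58 for Flt1 (-1.29 to 0.13, adjusted p = 0.552) and 0.46 for Angpt1 (-0.07 to 1.00, adjusted p = 0.530). So the call of Flt1 in treated mice alone, and of Kdr, Emcn and Vegfa in untreated mice alone, was not shown to be a difference between treated and untreated mice.

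By group means, all 10 genes had the same layout, with both WT groups above both Mtm1-/y groups. The genotype difference was not called for every gene in each comparison, as given above. No neighbours of the same genotype were called different. For Angpt1 the gap between Mtm1-/y and Mtm1-/y + TAM was wider than either SD. The same held for Emcn between WT (22.3 ± 3.17 CPM) and WT + TAM (17.8 ± 1.92 CPM). Pecam1 stood at 120.5 ± 20.1 in WT, 109 ± 16.9 in WT + TAM, 78.8 ± 10.7 in Mtm1-/y and 75.8 ± 12.6 CPM in Mtm1-/y + TAM. Kdr ran from 109 ± 11.5 in WT through 81.2 ± 39.6 in WT + TAM and 39.4 ± 1.57 in Mtm1-/y + TAM to 31.6 ± 14.3 CPM in Mtm1-/y. Flt1 ran from 96.9 ± 19.4 in WT + TAM through 86.9 ± 14.1 in WT and 67.7 ± 25.4 in Mtm1-/y to 50.6 ± 7.86 CPM in Mtm1-/y + TAM. Vegfa went from 274 ± 28.7 in WT through 225 ± 67.4 in WT + TAM and 154 ± 58.5 in Mtm1-/y to 135 ± 10.1 CPM in Mtm1-/y + TAM, and Vegfb from 79.9 ± 18.3 in WT + TAM to 58.1 ± 5.46 CPM in Mtm1-/y. A mean over the 7 endothelial genes, each as log2 CPM less its WT mean, was -0.95, -0.92, -1.05 and -0.70 in Mtm1-/y and -1.16, -0.91 and -0.72 in Mtm1-/y + TAM. It was -0.73, 0.00, -0.09 and 0.00 in WT + TAM, so replicate 1 of that group reached the mutant range.

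Libraries of the same group also differed together. After the group mean was taken off log2 CPM, Pearson's r was computed over 15 libraries for the 45 pairs of the 10 genes, with permutation within groups (100000 draws) and adjustment over the pairs. Cdh5 and Tie1 had r = 0.884 (permutation p = 0.00113, adjusted 0.0177; Spearman's coefficient 0.768, permutation p = 0.00154, adjusted 0.0346), and 0.748 without the libraries farthest out in Cdh5, which were WT + TAM replicates 1 and 4. Cdh5 and Tek had r = 0.840 (permutation p = 0.00174, adjusted 0.0177; Spearman's coefficient 0.854, permutation p = 0.00149, adjusted 0.0346), and 0.866 without the same libraries. Other pairs that passed the adjustment on Pearson's r were Pecam1 with Cdh5 (0.807) and Tie1 (0.781), Tek with Tie1 (0.779) and Emcn (0.678), and Kdr with Emcn (0.578). On Spearman's coefficient these other pairs did not pass. Flt1 and Vegfa had r = 0.780 (permutation p = 0.0135, adjusted 0.0665) and a Spearman's coefficient of 0.736 (permutation p = 0.0345, adjusted 0.110). Their r was 0.728 without the libraries farthest out in Flt1, WT replicate 2 and Mtm1-/y replicate 1. The pair failed the adjustment.

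**Figure D4:**
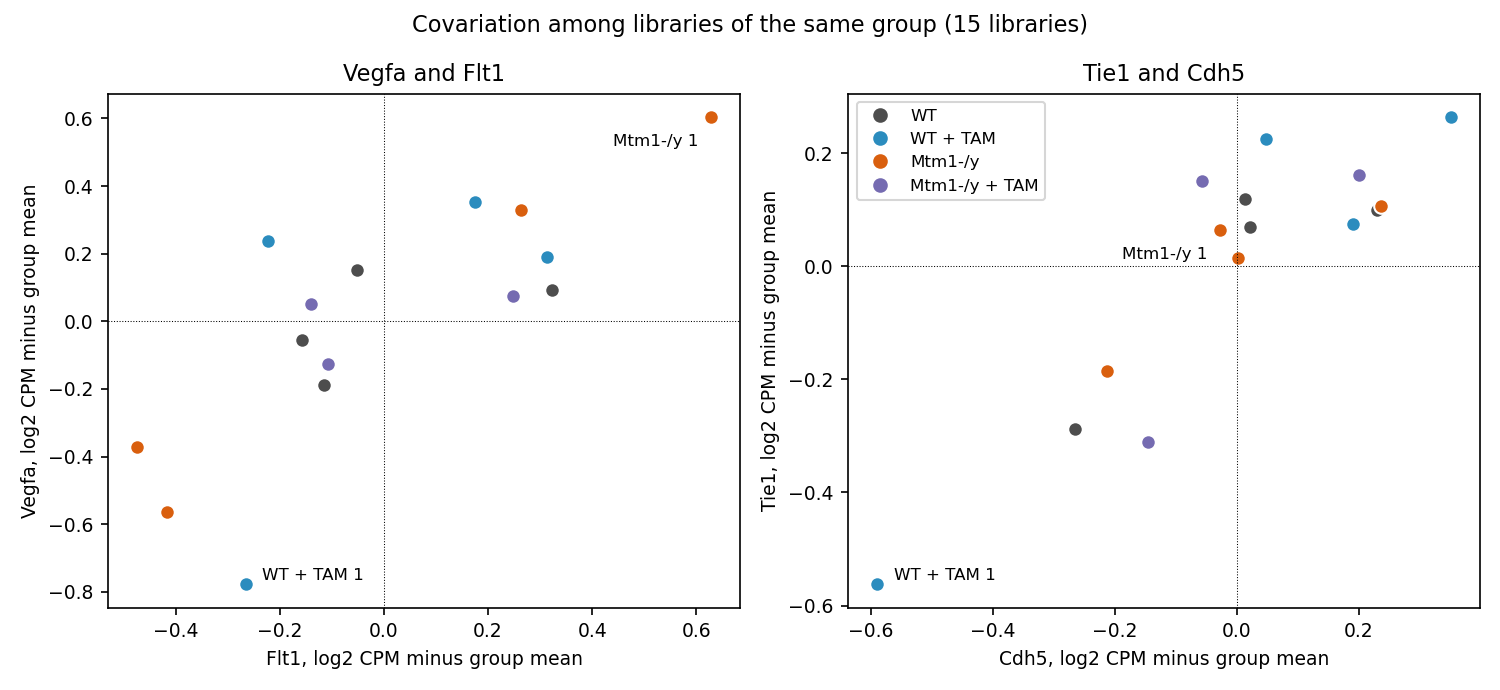
Each point is 1 of 15 libraries, placed by its log2 CPM minus the mean of its own group, for Vegfa (y axis) against Flt1 (x axis) on the left and Tie1 (y axis) against Cdh5 (x axis) on the right, coloured by group. Mtm1-/y replicate 1 is at the top right for Flt1 and Vegfa (r = 0.780 over all 15) and near the centre for Tie1 and Cdh5 (r = 0.884), where WT + TAM replicate 1 is at the bottom left.

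Among all tested genes, those whose deviations from the group means were most like the mean of the 7 endothelial genes were Igkc (r = 0.951 over 15 libraries), an antibody light chain gene of plasma cells, Car8 (0.945), Itpkb (0.926), Arhgef15 (0.925), an endothelial gene, and Vtn (0.915), vitronectin. For Vegfa they were Slc16a1 (0.965), a lactate transporter gene, Patl1 (0.958), Mff (0.948), of mitochondrial fission, Cluh (0.948) and Zfp407 (0.947). These correlations describe the same 15 libraries, were chosen as the highest of 15533 genes, and share library composition.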

How the data were processed

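Whole tibialis anterior RNA of 15 mice was sequenced from TruSeq stranded mRNA libraries. The authors deposited raw read counts per Ensembl gene, 1 column for each mouse, without normalizing them. Per the submitters' processing notes, the tools were STAR 2.5.3a, HTSeq 0.6.1p1, Bowtie2 2.2.8 and cutadapt 1.10 and the build GRCm38 (mm10), with no role for any; annotation release and strand setting: not given in the sources used here. Symbols, coordinates and exon lengths came from GENCODE M21 (GRCm38), in which all 30672 identifiers were matched; Ero1a was found under its older symbol Ero1l. Promoter windows came from the RefSeq table.

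Counts were tested with edgeR 4.0.16 in R 4.3.3: filterByExpr (minimum count 10), TMM factors, and a robust quasi-likelihood fit of 4 group means to all 15 libraries (11 residual degrees of freedom), with Benjamini-Hochberg adjustment over 15533 genes and calls at 0.05. The fits were tested on simulated counts. Log2 CPM values had a prior count of 2. Total counts were 18042558 to 45823277, and intervals rest on the spread between mice, whose separate origin beyond the labels is not stated. The 10 genes, the lists and the tests were chosen with earlier results of these data known. Besides the 10, the 2 highest and 2 lowest log2FC among called genes of each list were named in Mtm1-/y against WT. Every called list gene was to be named for tamoxifen within a genotype and the interaction, where the reported lists held 0. The 5 genes most like the endothelial mean and Vegfa were also named. Genes named otherwise, the ratios (also without a library that stood apart) and the correlations between pairs were chosen after their values were seen. DESeq2 1.42.0, limma-voom (limma 3.58.1), other scalings and filters, a fit of only the groups compared, a replicate block and leaving out libraries were alternatives. Replicate numbers are shared between groups in the labels, which name no pairing beyond these numbers. For deviations of same-numbered libraries r was -0.11 to 0.31 over 21 pairs, above 0.1 in 6. Differently numbered libraries were not set beside them, so these values do not decide whether the numbers pair mice. The samples were not treated as paired. The Schwann cell list is not reported here.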

Additional observations from a re-analysis of the deposited data

Results flagged for a closer look

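Tie1 in WT replicate 1 stood apart from the rest of its group: it was at 69.8 CPM, where the other 3 WT libraries lay between 89.4 and 92.5 CPM, a gap of 0.863 of the whole range. It was the single such value in 30 groups of 4 libraries examined, and chance gives about 1 in 20. The value still lay above all 4 Mtm1-/y libraries.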

How the results depend on the processing

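Over 1340 refits of the 10 genes in the 5 comparisons, 1298 kept the direction or lack of a call, 30 lost a call, 12 gained one and 0 reversed a called direction; 36 of those that kept their status changed sign while not called. All calls lost or gained fell in Mtm1-/y against WT and Mtm1-/y + TAM against WT + TAM. The tamoxifen comparisons and the interaction held no call to lose, and most refits that kept their status came from them. When an absolute log2FC over 1 was also required, 3 genes were called in Mtm1-/y against WT and 0 in Mtm1-/y + TAM against WT + TAM. Leaving out each library in turn gave 7 to 9 genes in the first and 3 to 9 in the second, and without both libraries that stood apart 9 were called in each. With library size alone as scaling the median of all genes shifted by 0.15 in the first and 0.14 in the second on the log2 scale; relative to that the 10 genes were lower as before, with 8 and 4 called, and of all called genes 3654 were higher and 1429 lower in the first, against 2407 and 2320 with TMM (2685 and 783 in the second, against 1652 and 1469). Over all genes DESeq2 called 298 for WT + TAM against WT, 4 for Mtm1-/y + TAM against Mtm1-/y and 74 for the interaction, where edgeR called 48, 2 and 0; leaving out each library gave 11 to 143, 0 to 5 and 0 to 7, without both libraries that stood apart 347, 7 and 14 were called, and no filter gave 1 and 2 for the last pair. For Mtm1-/y + TAM against WT + TAM 3121 genes fell to 1656 without Mtm1-/y + TAM replicate 2, and an absolute log2FC over 1 left 1536 of 4727 and 934 of 3121. DESeq2 called 8 of the 10 in the second, adding Kdr and Vegfa. With the replicate block 8 and 6 were called. In the second, by edgeR, Emcn was gained (adjusted p = 0.0499) and Pecam1 lost (adjusted p = 0.0523). No other call changed. The numbers are not known to pair the mice, so this is not read as a paired result. In both tamoxifen comparisons and the interaction 0 of the 10 were called under all alternatives run. The interaction has no fit of only the groups compared, since it uses all 4. Depth limited Angpt4 and Esm1, at under 30 counts in each Mtm1-/y library.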
